A study of Mus musculus with 8 samples.

Results

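The complement genes followed here in mouse lung RNA were C1qa, C1qb, C1qc, C4b, C3, Cfb, C3ar1, C5ar1 and Cd55. They were chosen by name as components, receptors and a regulator of complement, and are 9 of the 52636 genes counted. Total RNA was sequenced from the lungs of wild type male C57BL/6 mice in 4 groups of 2 libraries. Control mice were given PBS, and the COPD mice were given intratracheal porcine pancreatic elastase (PPE) at 10 weeks of age followed by 3 doses of lipopolysaccharide (LPS) from 12 weeks of age. Within each arm, 1 group ate a control diet and the other a diet with 2% TJ-41, the kampo medicine hochuekkito, from 8 weeks of age. The groups are called control-diet PBS mice, TJ-41 PBS mice, control-diet COPD mice and TJ-41 COPD mice. The age at which the lungs for sequencing were taken was not given in the sources used here. The labels number 2 replicates in each group without stating whether they were separate mice, so p-values measure only the spread between these libraries.

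Complement is a cascade of plasma and tissue proteins that marks particles and cells for removal. In the classical pathway C1q binds its target and, through the proteases C1r and C1s, leads to cleavage of C4 and C2; all pathways meet at C3, and factor B builds the alternative pathway convertase that amplifies C3 cleavage. The small fragments C3a and C5a recruit and activate leukocytes through receptors, while membrane regulators such as CD55 take convertases apart on the body's own cells. C1q is made largely by tissue macrophages, and alveolar epithelial cells are a known local source of C3 in the lung.

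The genes C1qa, C1qb and C1qc encode the A, B and C chains of C1q and lie side by side on the minus strand of chromosome 4 (GRCm38). C1qb spanned 136880129 to 136886187, C1qc spanned 136889804 to 136893065, and C1qa spanned 136895917 to 136898803. No 50-base window of their transcripts occurred in any other annotated gene. Because the levels of the 3 genes moved together, the sequence just upstream of the start site is shown for C1qb and C1qc, the C1q genes matched in the RefSeq promoter table (GRCm38.p6), which matched 6 of the 9 genes. The C1qb stretch is 250 bases at chr4:136886201-136886450 and the C1qc stretch is 99 bases at chr4:136893066-136893164, both on the minus strand, 5′ to 3′, the first ending just before the RefSeq start of C1qb and the second just before the first annotated exon base of C1qc.
C1qb: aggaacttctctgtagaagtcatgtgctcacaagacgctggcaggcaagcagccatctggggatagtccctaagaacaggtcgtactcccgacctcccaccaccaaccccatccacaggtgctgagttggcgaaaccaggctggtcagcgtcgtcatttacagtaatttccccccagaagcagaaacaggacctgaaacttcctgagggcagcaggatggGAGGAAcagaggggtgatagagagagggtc
C1qc: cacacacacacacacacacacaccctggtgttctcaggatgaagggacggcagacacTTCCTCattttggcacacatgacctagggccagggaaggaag
Capitals mark GAGGAA or its reverse complement TTCCTC, a longer form of the GGAA core read by ETS factors such as the macrophage regulator PU.1. Each stretch held 1 match to this longer form, and both also held GGAA outside the capitals. Over all 32851 promoters in the table, 23.3% held a match in the 250 bases before the start, and 9.91% held one in the same 99 bases as C1qc. A match is a description of letters and not a bound site.

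The libraries held 18767295 to 20888042 counted reads. Levels are given in CPM, each gene's reads per 1000000 reads of a library after scaling by the trimmed mean of M values. All 9 genes passed the filter on low counts, with 43 to 93 reads per library for Cfb at the low end and 17026 to 30789 for C3 at the high end. The control-diet COPD mice were a pair of libraries that lay far apart. The standard deviation over genes of the log2 difference between its replicates was 0.67, against 0.31 to 0.38 in the other groups. In this pair, genes with 1000 to 2000 exon bases were a median 0.20 higher (log2) in replicate 2 than in replicate 1, and genes with at least 5000 exon bases were a median 0.19 lower (-0.19). The lung label held for every library, with the alveolar type II gene Sftpc at 9504 to 25921 CPM.

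Per kilobase of exon, C3 was the most abundant of the 9 genes, with a median of 233 CPM per kb and a range of 173 to 307 over the 8 libraries. That median lay above 99.1% of the 20546 genes tested. C4b followed at a median of 53.9 CPM per kb (34.3 to 82.7) and was below C3 in all 8 libraries. C1qb, Cd55 and C1qa formed the next tier, with medians of 25.3, 25.2 and 23.4 CPM per kb. The order within this tier was not stable, since C1qb exceeded Cd55 in 4 of 8 libraries and Cd55 exceeded C1qa in 4 of 8. C1qc had a median of 12.7 CPM per kb and was below C1qa in all 8 libraries, but in replicate 2 of the control-diet COPD mice it lay above Cd55 (24.9 against 18.8 CPM per kb). C5ar1 (4.84), C3ar1 (1.79) and Cfb (1.10) followed C1qc in the same order in all 8 libraries. The last place of Cfb depended on its length. Of its 2825 exon bases, 2246 also belonged to the readthrough gene Gm20547 on the same strand, which had 0 reads in every library, and how reads in shared bases were counted was not given in the sources used here. If all its counted reads came from the 579 bases unique to Cfb, its level would be a median of 5.35 CPM per kb (3.88 to 8.38). That upper bound would place it next to C5ar1.

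**Figure D1:**
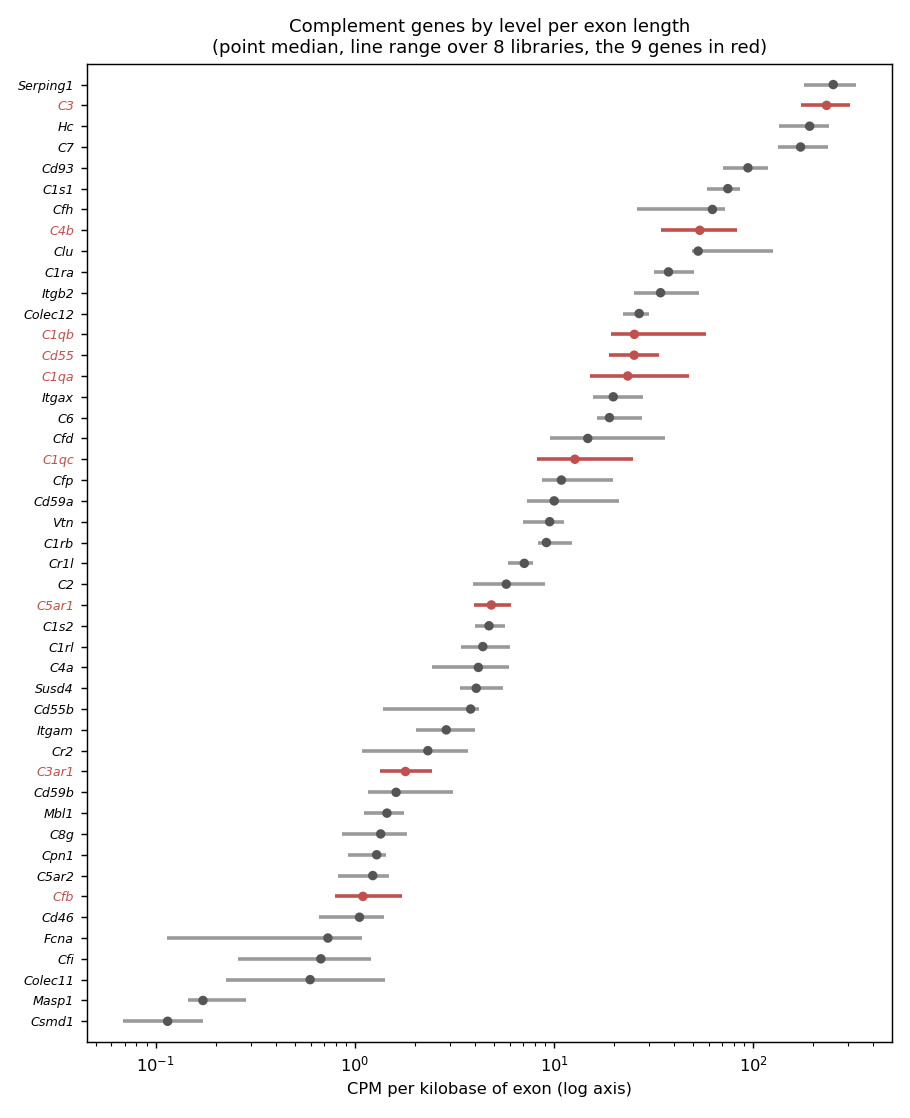
Level of complement genes in mouse lung, in CPM per kilobase of exon on a log axis. Points are medians and lines span the lowest to the highest of 8 libraries, the 9 genes followed here are in red, and 46 of the 47 complement genes tested are drawn because Cpn2 had 0 reads in a library. C3 sits next to Serping1 and Hc at the top (median 233), and Cfb lies near the bottom (median 1.10).

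The 3 C1q genes were the classical pathway starters, and no difference between COPD and PBS mice passed the test across all genes for any of them. C1qa was at 28.5 and 22.2 CPM in the control-diet PBS mice, 20.5 and 15.8 in the TJ-41 PBS mice, 21.1 and 49.6 in the control-diet COPD mice, and 31.7 and 26.5 in the TJ-41 COPD mice, replicate 1 before replicate 2 throughout. C1qb was, in the same order, at 30.9 and 24.7, 23.8 and 21.03, 23.8 and 63.1, and 33.9 and 30.4 CPM. C1qc was at 26.6 and 20.4, 19.7 and 15.8, 22.7 and 48.1, and 27.8 and 26.4 CPM. On the control diet the groups overlapped for all 3 genes, and replicate 1 of the COPD mice lay within or just below the control range while replicate 2 was the highest library of the series. On TJ-41 both COPD libraries were above both control libraries for all 3 genes.

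On the control diet, C1qa was 0.48 ± 0.35 higher in the COPD mice (log2 fold change ± SE, n = 2 libraries a group), C1qb 0.64 ± 0.37 and C1qc 0.59 ± 0.32. Their adjusted p-values were 0.837, 0.772 and 0.749 in edgeR's quasi-likelihood test (Benjamini-Hochberg adjusted). On TJ-41 the differences were 0.68 ± 0.36, 0.52 ± 0.37 and 0.61 ± 0.32, with adjusted p-values of 0.773, 0.785 and 0.773 in the same edgeR test. Averaged over the diets, C1qa (unadjusted p = 0.0458) and C1qc (unadjusted p = 0.0265) passed an unadjusted threshold of 0.05 in edgeR, and neither held after adjustment (0.470 and 0.393).

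A single library decided the size of the C1q difference on the control diet. Without replicate 1 of the control-diet COPD mice, C1qb (1.18, adjusted p = 0.00497) and C1qc (1.03, adjusted p = 0.0129) passed both thresholds in edgeR, and C1qa (0.96, adjusted p = 0.0191) passed the false discovery rate but not the fold. In that fit 1343 genes were called against 25 with all libraries, and the lone COPD library was assumed to vary like the other groups. Without replicate 2 instead, the differences were -0.26 for C1qa, -0.22 for C1qb and -0.046 for C1qc. Between these 2 libraries, replicate 2 was 1.22 higher for C1qa, 1.39 for C1qb and 1.06 for C1qc on the log2(CPM + 0.5) scale. Of the 3025 genes with 1000 to 2000 exon bases, the length class of all 3 genes, 5.65% were raised as far as C1qa, 2.64% as far as C1qb and 9.29% as far as C1qc in that library. The part of transcript length in the C1q values was not tested.

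The 3 C1q genes kept nearly fixed proportions, while the level of C1qa varied 3.14-fold between its lowest and highest library. The read ratio of C1qb to C1qa ran from 1.07 to 1.33 over the 8 libraries, and that of C1qc to C1qa from 0.88 to 1.08. The standard deviation of the log2 ratio was 0.11 for C1qb to C1qa and 0.09 for C1qc to C1qa, against 0.50 for C1qa itself. Against general macrophage genes the proportions varied with the gene chosen. The read ratio of C1qa to Csf1r, the receptor for macrophage colony-stimulating factor, ran from 0.11 to 0.44, and that of C1qa to Adgre1, which encodes F4/80, from 0.46 to 2.76, with the highest value of each in replicate 2 of the control-diet COPD mice. The standard deviation of the log2 ratio was 0.63 to Csf1r and 0.84 to Adgre1, both above that of C1qa itself. To Lyz2, the lysozyme gene and the most abundant of the macrophage markers, it was 0.30, below that of C1qa, and this ratio ran from 0.0024 to 0.0045.

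**Figure D2:**
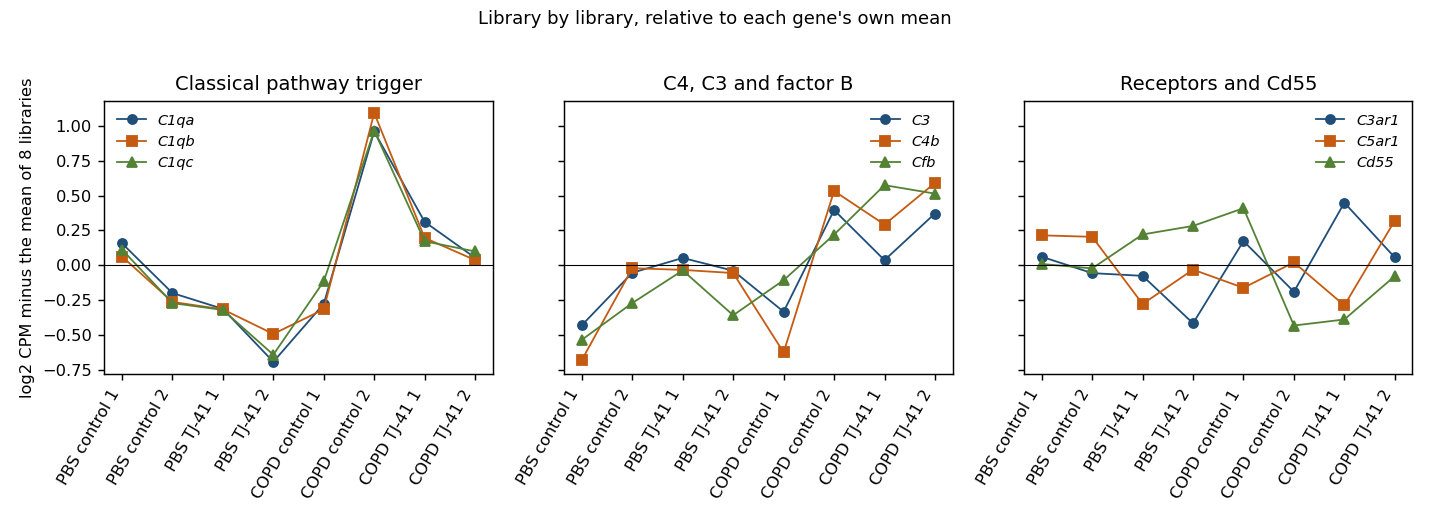
Log2 CPM of each gene minus its own mean over the 8 libraries, in 3 panels by role, with lines only joining the points of a gene. C1qa, C1qb and C1qc overlie one another in every library and peak in replicate 2 of the control-diet COPD mice, while C3ar1, C5ar1 and Cd55 follow no shared course.

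C4b encodes complement C4, which C1s cleaves after C1q has bound, and lies on the minus strand of chromosome 17 from 34728380 to 34743882. C4b was at 195 and 308 CPM in the control-diet PBS mice, 305 and 301 in the TJ-41 PBS mice, 203 and 452 in the control-diet COPD mice, and 383 and 471 in the TJ-41 COPD mice. The lowest libraries were replicate 1 of both control diet groups, and the groups overlapped on the control diet and not on TJ-41. The log2 difference was 0.38 ± 0.35 on the control diet and 0.49 ± 0.35 on TJ-41, with adjusted p-values of 0.886 and 0.785 in edgeR. The first value became -0.31 without replicate 2 of the control-diet COPD mice and 0.84 without replicate 1. C4b shared 34.6% of its 50-base windows with its copy C4a. The read ratio of C4b to C4a stayed between 10.04 and 15.5, and with the counts of the copies summed no call changed.

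C3, the protein on which all pathways converge (gene on chromosome 17, 57203970 to 57228136, minus strand), was at 891 and 1156 CPM in the control-diet PBS mice, 1244 and 1168 in the TJ-41 PBS mice, 952 and 1579 in the control-diet COPD mice, and 1231 and 1552 in the TJ-41 COPD mice. Its COPD and control libraries overlapped on both diets. The log2 difference was 0.31 ± 0.27 on the control diet (adjusted p = 0.873, edgeR) and 0.21 ± 0.26 on TJ-41 (adjusted p = 0.837, edgeR). The interval on the control diet, -0.29 to 0.90, spans no change as well as a 1.87-fold rise. That difference became -0.10 without replicate 2 of the control-diet COPD mice and 0.62 without replicate 1. The read ratio of C3 to C4b stayed between 3.22 and 4.70.

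Cfb encodes factor B, the protease of the alternative pathway convertase, and its COPD and PBS libraries were separate within both diets. The gene lies on chromosome 17 from 34856374 to 34862518. It was at 2.25 and 2.70 CPM in the control-diet PBS mice, 3.18 and 2.54 in the TJ-41 PBS mice, 3.02 and 3.79 in the control-diet COPD mice, and 4.85 and 4.65 in the TJ-41 COPD mice. The groups did not overlap within either diet, but across diets the lower COPD library (3.02) lay below the highest control library (3.18). The difference was 0.46 ± 0.29 on the control diet (adjusted p = 0.804, edgeR), 0.73 ± 0.29 on TJ-41 (adjusted p = 0.714, edgeR) and 0.60 ± 0.20 averaged over diets (adjusted p = 0.342, edgeR). Unadjusted, Cfb had the smallest p-values of the 9 genes on TJ-41 (0.0306) and over both diets (0.0167). Leaving out any library kept the average difference between 0.51 and 0.68. These levels rest on 43 to 93 reads a library.

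C3ar1 and C5ar1 encode the receptors for C3a and C5a, carried mainly by myeloid cells. C3ar1 lies on chromosome 6 from 122847138 to 122856161 and C5ar1 on chromosome 7 from 16246743 to 16259540. C3ar1 was at 8.06 and 7.42 CPM in the control-diet PBS mice, 7.33 and 5.78 in the TJ-41 PBS mice, 8.71 and 6.77 in the control-diet COPD mice, and 10.5 and 8.03 in the TJ-41 COPD mice. C5ar1 was, in the same order, at 14.5 and 14.4, 10.3 and 12.2, 11.2 and 12.7, and 10.2 and 15.6 CPM. The receptors did not follow each other. On the control diet C3ar1 overlapped and C5ar1 was lower in both COPD libraries, and on TJ-41 C3ar1 was higher in both and C5ar1 overlapped.

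For C3ar1 the log2 difference was -0.00045 ± 0.26 on the control diet and 0.50 ± 0.26 on TJ-41, with adjusted p-values of 1.000 and 0.773 in edgeR. For C5ar1 it was -0.28 ± 0.25 on the control diet and 0.20 ± 0.25 on TJ-41, with adjusted p-values of 0.875 and 0.834. The change of the COPD difference with diet was 0.50 ± 0.37 for C3ar1 and 0.48 ± 0.35 for C5ar1, each with an adjusted p of 0.999 in edgeR's test of the interaction.

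Cd55, which encodes decay-accelerating factor and lies on chromosome 1 from 130439027 to 130462744, was at 124 and 121 CPM in the control-diet PBS mice, 143 and 150 in the TJ-41 PBS mice, 163 and 91.1 in the control-diet COPD mice, and 93.9 and 117 in the TJ-41 COPD mice. The control-diet COPD pair held the highest and the lowest library of the series. On TJ-41 both COPD libraries were below both control libraries. The difference was 0.06 ± 0.25 on the control diet (adjusted p = 0.989, edgeR) and -0.48 ± 0.25 on TJ-41 (adjusted p = 0.773, edgeR). Without replicate 1 of the control-diet COPD mice the first value became -0.43 with an adjusted p of 0.106, and without replicate 2 it became 0.42 with an adjusted p of 0.260. Cd55 shared 9.12% of its windows with other genes, chiefly its copy Cd55b, and 102 exon bases with the antisense gene Gm16083, whose reads cannot be told apart where strand is not used.

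**Figure D3:**
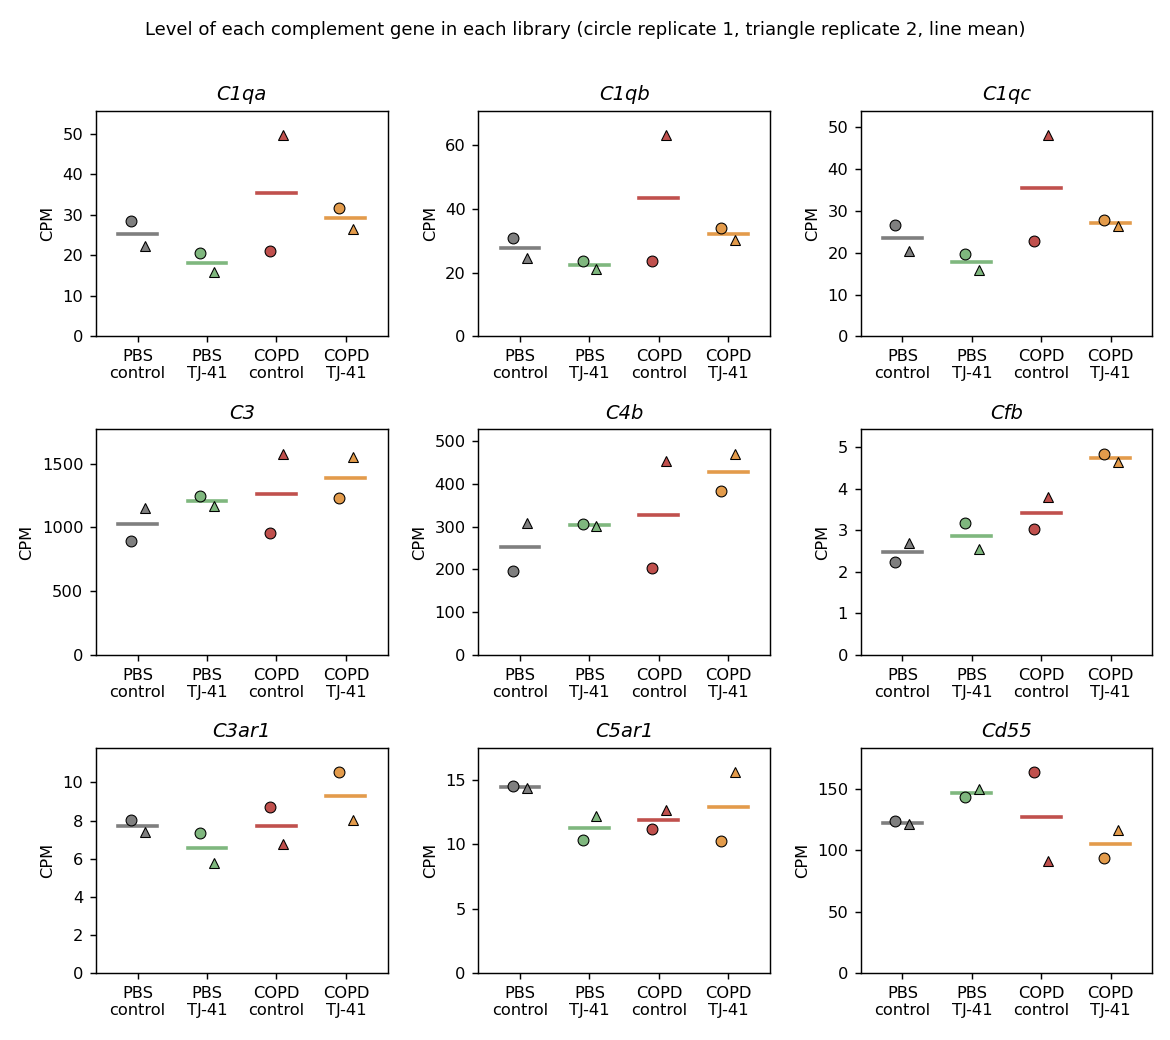
CPM of the 9 genes in each of the 8 libraries, on linear axes from 0. Circles are replicate 1, triangles replicate 2 and lines the mean of 2 libraries. The pair of the control-diet COPD mice is spread widely for C1qa (21.1 and 49.6), C4b (203 and 452) and Cd55 (163 and 91.1), and Cfb is highest in the TJ-41 COPD mice (4.85 and 4.65).

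Across the 9 genes, edgeR's quasi-likelihood test called none at a false discovery rate under 0.05 with a log2 fold change beyond 1. On the control diet 0.122% of all genes were called (25 of 20546), on TJ-41 0.0779% (16) and over both diets 0.443% (91). At an unadjusted p under 0.05, 0 of the 9 genes passed on the control diet, where 7.7% of all genes did, 1 passed on TJ-41 (Cfb, against 6.56%) and 3 over both diets (C1qa, C1qc and Cfb, against 10.4%). The DESeq2 Wald test also called 0 of the 9 in each of these comparisons, with 0, 0 and 4 genes at an unadjusted p under 0.05, and edgeR's exact test called 0 on either diet, with 0 and 1 such genes. Of all genes, DESeq2 called 174, 125 and 249, and the exact test 210 and 137. With 2 libraries a group, an exact permutation test could not give a p-value below 0.333.

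In direction, 7 of the 9 genes were higher in the control-diet COPD mice and 8 on TJ-41, and the exception on TJ-41 was Cd55. The median log2 difference of the 9 was 0.38 on the control diet and 0.50 on TJ-41, against 0.0073 and -0.0016 over all genes, of which 51.0% and 49.8% were higher. The COPD and control libraries did not overlap for 2 of the 9 genes on the control diet (Cfb and C5ar1), where 27.6% of all genes did not. On TJ-41 they did not overlap for 7 of 9, where 56.5% of all genes did not. With 4 COPD against 4 control libraries, all 9 genes overlapped, and 6.78% of all genes did not. In lung homogenate, fewer cells of a type and less RNA per cell cannot be told apart.

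**Figure D4:**
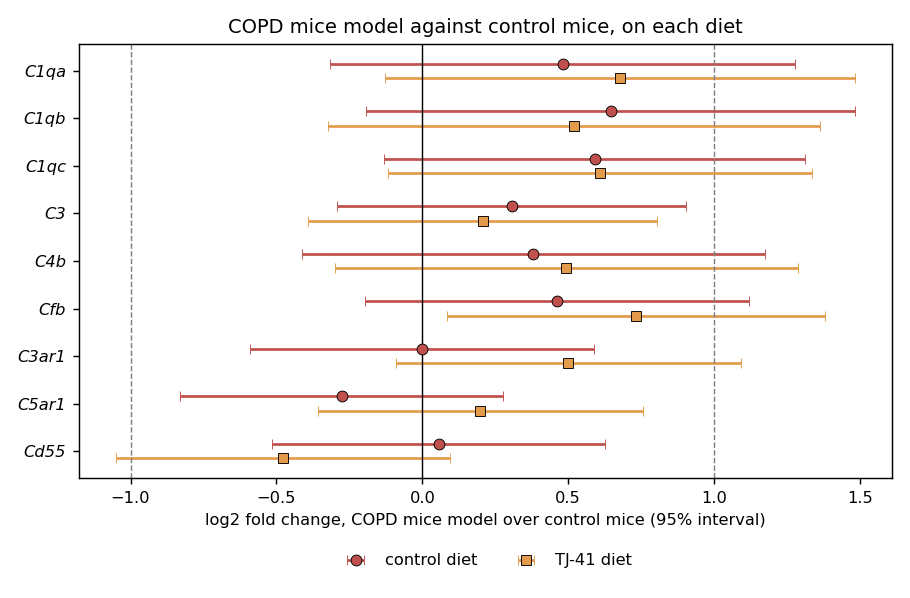
Log2 fold change of the COPD mice over the control mice for the 9 genes, on the control diet (circles) and on TJ-41 (squares), with 95% intervals from edgeR. Dashed lines mark a log2 fold change of 1 in either direction. The interval of Cfb on TJ-41 (0.08 to 1.38) leaves 0 out and the other 17 intervals include it.

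The second question of the design was whether the TJ-41 diet changed these genes. None of the 9 was called between the diets, within the PBS arm (0% of all genes called), within the COPD arm (0.00487%, 1 gene), over both (0%) or as an interaction (0%). In edgeR no gene of the 9 reached an unadjusted p under 0.05 in any of these, where 1.64%, 4.1%, 2.48% and 3.27% of all genes did, and DESeq2 called 0 of the 9 in each. The fitted diet differences of the C1q genes were below 0 in both arms. C1qa was -0.48 ± 0.36 in PBS mice and -0.28 ± 0.35 in COPD mice, C1qb -0.31 ± 0.37 and -0.44 ± 0.37, and C1qc -0.40 ± 0.32 and -0.39 ± 0.32. Cfb was 0.21 ± 0.29 in PBS mice and 0.48 ± 0.28 in COPD mice, C4b 0.27 ± 0.35 and 0.38 ± 0.35, and C3 0.24 ± 0.27 and 0.14 ± 0.26. None of these passed the test, with the smallest adjusted p at 0.996 in PBS mice and 0.991 in COPD mice (edgeR). The libraries of the diets did not overlap for 7 of the 9 genes in PBS mice, all but C4b and Cfb, where 38.2% of all genes did not, and for 1 of the 9 in COPD mice, Cfb, where 29% did not. The 95% half-widths ran from 0.56 to 0.84 in each arm in this fit. A call also needed the adjusted threshold and a log2 fold change beyond 1, so differences of this size or larger could go uncalled. Without replicate 2 of the control-diet COPD mice, the C1q values in the COPD mice turned to 0.46, 0.43 and 0.25 for C1qa, C1qb and C1qc. Without replicate 1 instead, they were -0.77, -0.97 and -0.83.

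The wider complement system was examined in 5 lists by role, 56 genes in all with the 9 included, of which 47 were tested. The edgeR test called none of the 47 in any comparison. At an unadjusted p under 0.05, 1 of them passed on the control diet, 9 on TJ-41 and 12 over both diets, where 7.7%, 6.56% and 10.4% of all genes did. Between the diets 1 passed in the COPD arm (4.1% of all genes) and 0 in the PBS arm (1.64%). DESeq2 called 1, Cfd, on TJ-41 and over both diets, where it called 125 and 249 of all genes. Of the 47, 31 were higher in the control-diet COPD mice and 34 on TJ-41, with medians of 0.18 and 0.25. Libraries did not overlap for 13 of the 47 on the control diet, 36 on TJ-41 and 5 with 4 against 4, where 27.6%, 56.5% and 6.78% of all genes did not.

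Among the 16 tested initiation genes, 12 were higher on the control diet and 13 on TJ-41, with medians of 0.22 and 0.45. By mean CPM the most abundant of them outside the 9 was C1s1, which encodes the protease that cleaves C4, at 182 to 268 CPM, with Colec12 close to it at 193 to 260 CPM. For C1s1 the difference was 0.21 ± 0.18 on the control diet. The 4 amplification genes, C3, Cfb, Cfp and Cfd, were all higher on both diets, with medians of 0.49 and 0.57. Cfp, which encodes the convertase stabiliser properdin, was highest in replicate 2 of the control-diet COPD mice (34.3 CPM, against 15.1 to 24.8 elsewhere), as the C1q genes were. Cfd encodes factor D, the protease that activates factor B and a product of adipocytes. It was outside the naming rule and is singled out after its values were seen, since it had the smallest adjusted p of the 47 over both diets, 0.134 in edgeR with a log2 difference of 1.01 ± 0.23.

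The 4 tested terminal genes had medians of -0.10 on the control diet and 0.30 on TJ-41, with Hc, the gene of C5, at 840 to 1509 CPM and a difference of 0.07 ± 0.23 on the control diet. Hc was lowest in replicate 2 of the control-diet COPD mice, the library in which C3 was highest. The 15 tested regulators were evenly placed, with 9 higher and 6 lower on the control diet and 8 and 7 on TJ-41. Serping1, the C1 inhibitor gene, was the most abundant at 416 to 760 CPM and differed by 0.00087 ± 0.26 on the control diet. On TJ-41 the COPD libraries of C1s1, Hc and Serping1 lay above the PBS libraries. On that diet 56.5% of all genes did not overlap. Of the 8 tested receptors, 4 were higher on the control diet and 6 on TJ-41. Cd93, once described as a C1q receptor and abundant on endothelium, was at 641 to 789 CPM in the 4 control libraries and 470 to 613 in the 4 COPD libraries, with no overlap, and differed by -0.37 ± 0.14 over both diets (adjusted p = 0.399, edgeR).

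**Figure D5:**
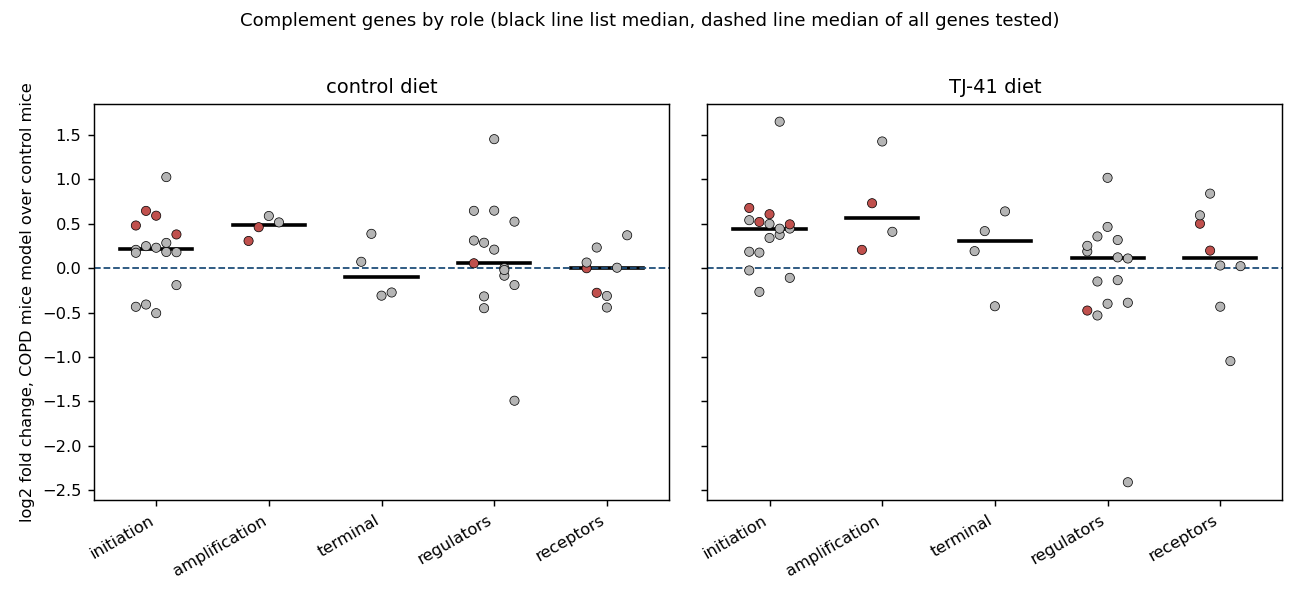
Log2 fold change of the COPD mice over the control mice for the tested complement genes in 5 lists by role, on the control diet and on TJ-41. Red points are the 9 genes, black lines list medians and the dashed line the median of all genes. The initiation and amplification medians (0.22 and 0.49 on the control diet, 0.45 and 0.57 on TJ-41) lie above the dashed line on both diets.

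Markers of the cells that make complement, and of other lung cells, were summed by list. On the control diet the sums of the COPD and PBS libraries did not overlap for 2 lists, alveolar macrophages and B and plasma cells. On TJ-41, where 7 of the 9 genes did not overlap, all lists but that of neutrophils were apart as well.

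Of 15 macrophage and monocyte markers, 7 were higher and 8 lower on each diet and none was called. Their sum was 7522 to 10452 CPM in the control-diet PBS mice, 9734 to 11894 in the control-diet COPD mice, 7191 to 8130 in the TJ-41 PBS mice and 9807 to 10510 in the TJ-41 COPD mice, most of it Lyz2 (6283 to 7249 CPM in the TJ-41 PBS mice and 8966 to 9577 in the TJ-41 COPD mice). The 11 alveolar macrophage markers summed, in the same order of groups, to 762 to 962, 1085 to 1767, 742 to 917 and 1385 to 1653 CPM, led by Chil3 (371 to 476 in the 4 control libraries and 625 to 1387 in the 4 COPD libraries), with none called. Of these 11, 5 were higher and 6 lower on the control diet, and 6 and 5 on TJ-41. Siglecf went the other way from the sum, at 12.2 to 21.8 CPM in the 4 control libraries and 2.87 to 9.25 in the 4 COPD libraries. The 8 alveolar type II markers, led by the surfactant gene Sftpc, summed to 23240 to 26587, 23063 to 38943, 19013 to 21452 and 27484 to 28980 CPM, with none called. The highest sum of each of these lists was in replicate 2 of the control-diet COPD mice, the library with the highest C1q.

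The 9 B and plasma cell markers, led by the immunoglobulin gene Ighm, summed to 691 to 821, 2599 to 3232, 1134 to 1286 and 2090 to 4077 CPM. Of these 9 markers, 5 were higher and 4 lower on each diet. Ighm, Ighg1 and Jchain were called on the control diet and over both diets, and Ighg1 on TJ-41. The 16 acute phase and LPS response genes, led by haptoglobin (Hp), summed to 1113 to 1126, 1021 to 2207, 1091 to 1097 and 1269 to 1366 CPM, with none called. On TJ-41 the COPD sums were above the PBS sums for all the lists given so far.

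The 5 mesothelial markers, led by Msln, summed to 146 to 177, 87.9 to 223, 156 to 173 and 181 to 262 CPM, and the 6 adipocyte markers, led by Lipe, to 61.2 to 74.4, 45.9 to 63.0, 49.2 to 58.2 and 62.03 to 63.4 CPM. Both were higher in the COPD libraries on TJ-41. The 7 club cell markers, led by Scgb1a1, summed to 19868 to 23488, 14066 to 32570, 20865 to 22069 and 14986 to 18252 CPM, and the 9 fibroblast markers, led by Col3a1, to 2158 to 3465, 1843 to 3290, 2694 to 2786 and 2521 to 2598 CPM. Both sums were lower in the COPD libraries on TJ-41, although 4 of the 7 club markers and 5 of the 9 fibroblast markers were higher. No gene of these 4 lists was called between COPD and PBS mice.

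The 14 neutrophil markers summed to 203 to 231, 133 to 257, 192 to 293 and 183 to 404 CPM and overlapped on both diets. Of the 10 tested, 2 were higher and 8 lower on the control diet, 8 and 2 on TJ-41, and 4 and 6 over both diets. Only Cd177, a surface protein of neutrophils, was called, over both diets (1.80 ± 0.30, adjusted p = 0.0442, edgeR), at 3.35 to 8.20 CPM in the 4 control libraries and 13.2 to 33.8 in the 4 COPD libraries. It was outside the naming rule and is singled out after its values were seen. No marker gene was at 0 in every library. The part of these cell types in the complement values was not tested.

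The genes whose course over the 8 libraries was most like that of C1qa were Chchd10, Pmm1 and Park7. They were picked among the 20470 tested genes that had a symbol and lay outside the complement lists. Pearson's r of log2(CPM + 0.5) was 0.99 for each, and 0.96, 0.96 and 0.97 without the 2 libraries farthest from the median, and Spearman's rho was 0.98, 0.98 and 1.00. Their exon lengths were 1575, 2866 and 2479 bases, against 1040 for C1qa. For C3 they were Rpp25, Peli2 and Fgf9, with r of 0.98, 0.98 and 0.97 and rho of 0.98, 0.93 and 0.98. These are descriptions over 8 libraries that share depth, scaling and the same standing-apart pair, and they were picked as the highest of many. Chchd10 ran from 24.2 CPM to 64.9 CPM, lowest and highest in the libraries where C1qa was lowest and highest.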

How the data were processed

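Lung total RNA was sequenced in 8 libraries. The authors deposited raw counts per gene for each library; their processing notes name HISAT2, edgeR and mm10, and the methods name CLC Genomics Workbench. The counting program, strand setting and annotation release are not given in the sources used here. Of 52636 gene identifiers, 52489 matched GENCODE M21 (GRCm38), which gave symbols and merged exon lengths.

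Counts were fitted with edgeR 4.0.16 in R 4.3.3 (filterByExpr with a minimum count of 10 and total of 15, trimmed mean of M values, quasi-likelihood test, 4 group means). A gene was called at a false discovery rate under 0.05 with a log2 fold change beyond 1, as in the study. The 20546 genes kept were adjusted together in each of 7 comparisons. The common biological coefficient of variation was 0.208. DESeq2 1.42.0, the edgeR exact test, other scalings and filters, a replicate block and the removal of each library were the alternatives.

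The 9 genes and all gene lists were chosen with earlier results of these data known. Named genes were the 9, any other complement gene called, the most abundant other gene of each complement list, the 3 genes most like C1qa and C3, and the most abundant marker of lists whose sums did not overlap. Replicates of every group differed by more than sampling noise. Same-numbered replicates did not deviate together (correlations of -0.25 to 0.14 between groups), so numbers were not taken as pairs.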

Additional observations from a re-analysis of the deposited data

Results flagged for a closer look

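C4b in replicate 1 of the control-diet PBS mice, at 195 CPM, stood apart from the other 3 control libraries, which lay between 301 and 308 CPM. Its gap to the nearest was 0.93 of the range of the 4, above Dixon's 95% critical value for 4 samples. This was 1 of 18 sets of 4 libraries examined, 9 genes in each arm, and chance flags about 1 in 20.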

How the results depend on the processing

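With 2 libraries a group, the control-diet COPD pair set the precision of the C1q, C4b and C3 values. The log2 differences of the 9 genes kept their direction in 350 of 352 values under other tests, scalings, filters and copies summed. The exceptions were C3ar1 on the control diet, 0.0026 with DESeq2 and 0.0027 with relative log expression factors. Scaling by library size alone moved the median of all genes by at most 0.061. The replicate block left the count of called genes among the 9 and the 47 at 0 in every comparison; the labels' numbers are not shown to pair libraries.

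Complement genes called on TJ-41 were 1 with DESeq2 (Cfd), 1 with the exact test (Cfd) and 3 with only the groups compared (Colec11, Cfd and Cr2), where 7 of the 9 genes had an unadjusted p under 0.05 and the smallest adjusted p was 0.056 in edgeR. These fits called 125, 137 and 248 of all genes, against 16 in the main fit. How many of all genes had an unadjusted p under 0.05 with only the groups compared was not counted. Over both diets 1 complement gene was called with DESeq2 and 1 with all genes of at least 1 count (Cfd in each). Those fits called 249 and 278 of all genes, against 91. Removing each library gave 0 to 2 of the 9 called on the control diet and, of the 47, 0 to 7 on the control diet, 0 to 2 on TJ-41, 0 to 4 over both diets and 0 to 3 between diets in the COPD mice. The higher counts came without replicate 1 of the control-diet COPD mice, and those on TJ-41 (Cfd and Cr2) also without replicate 2. In each of these fits and comparisons more of all genes were called than in the main fit, so the rise was not limited to complement genes. These fits left a lone library in the control-diet COPD group. Whether complement genes were called more often than other genes in them was not tested.

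Removing each library turned 21 of 360 values, with these ranges. On the control diet, C1qa ran from -0.26 to 0.96, C1qb from -0.22 to 1.18, C1qc from -0.046 to 1.03, C3 from -0.10 to 0.62, C4b from -0.31 to 0.84, C3ar1 from -0.20 to 0.17 and Cd55 from -0.43 to 0.42. C5ar1 ran from -0.13 to 0.48 on TJ-41 and from -0.21 to 0.10 over both diets. Between diets in the COPD mice, C1qa ran from -0.77 to 0.46, C1qb from -0.97 to 0.43, C1qc from -0.83 to 0.25, C3 from -0.18 to 0.55, C4b from -0.082 to 1.07, C5ar1 from -0.22 to 0.39 and Cd55 from -0.63 to 0.21. In control mice C4b ran from -0.025 to 0.63 between diets. The cause was not tested.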
